A study of Mus musculus with 16 samples.

Results

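The response to a high dose of intratracheal LPS was read across the transcriptome of lung cells isolated as endothelium. Every gene whose mean over the saline and LPS libraries reached 0.5 FPKM was taken. This rule took 14893 of 54532 annotated genes and 10 of the 16 libraries of the study. In FPKM the fragments of a gene are scaled to its length and to the depth of the library, so that levels of different genes can be compared. Lipopolysaccharide (LPS) coats the surface of Gram-negative bacteria. The study instilled saline or LPS at 10 mg/kg into the trachea of male wild-type (WT) C57/BL6J mice of 8 weeks, as a model of acute lung injury. Pulmonary endothelial cells (ECs) were taken after 24 h with magnetic beads, as cells with CD31 and without CD45, and bulk RNA-seq was made from 4 saline and 6 LPS samples. No genetic change was carried by either group, and the labels do not say whether a sample held more than 1 mouse. Reads on genes numbered 13478726 to 18807007 in the saline libraries and 17840221 to 19043015 in the LPS libraries.

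The capillary endothelium of the lung is a thin barrier between blood and air. Resting ECs keep this barrier closed, hold clotting and leukocyte adhesion in check, and carry receptors such as VEGF receptor 2 and the endothelin receptor B that mark their capillary identity. LPS is sensed through CD14 and Toll-like receptor 4, which signal to NF-kB and to the interferon regulatory factors. Activated ECs then display selectins, release chemokines and shift toward a procoagulant surface.

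The isolated cells carried endothelial transcripts in every library, and transcripts of leukocytes were far higher after LPS. The 10 endothelial markers summed to 5408, 3317, 4015 and 3436 FPKM in saline replicates 1 to 4, and in the LPS libraries the lowest, median and highest sums were 1437, 2851 and 3392 FPKM. None of the 10 markers was called higher and 3 were called lower, and in 5 every LPS library was under every saline library. Over all 14893 genes tested, 11.9% were called higher and 6.79% lower, and in 16.7% every LPS library was under every saline library. The mean level of the 10 markers, as log2(FPKM + 1), was 7.85 to 8.04 in saline and 6.56 to 7.67 in LPS, without overlap. Cldn5, which encodes the tight junction protein claudin-5, was the most abundant in both groups. The sums of the 6 leukocyte markers were 353, 146, 95.5 and 121 FPKM in saline and 1096, 1993 and 2723 FPKM in LPS, led by Tyrobp, and all 6 were called higher. Neutrophil markers, led by S100a9, summed to 1380, 69.5, 307 and 74.1 FPKM in saline and to 1293, 2604 and 6638 FPKM in LPS, with 7 of 8 called higher. Macrophage markers, led by Lyz2, summed to 1129, 483, 746 and 380 FPKM in saline and to 1967, 3279 and 4222 FPKM in LPS, with 7 of 8 called higher. Lymphocyte markers, led by Cd79a, summed to 103, 133, 24.1 and 109 FPKM in saline and 11.6, 24.8 and 46.2 FPKM in LPS, with 3 of 5 called lower. Epithelial markers, led by Sftpc, summed to 2844, 1321, 2101 and 1068 FPKM in saline and 263, 674 and 941 FPKM in LPS, with 2 of 9 called lower. Platelet markers, led by Pf4 in LPS, summed to 46.7, 38.4, 18.9 and 28.4 FPKM in saline and 47.3, 73.0 and 141 FPKM in LPS, with 3 of 5 called higher. No marker was at 0 in all libraries, and no marker was at 0 in every saline library. In bulk samples, fewer cells of a type and less RNA per cell cannot be told apart.

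**Figure D1:**
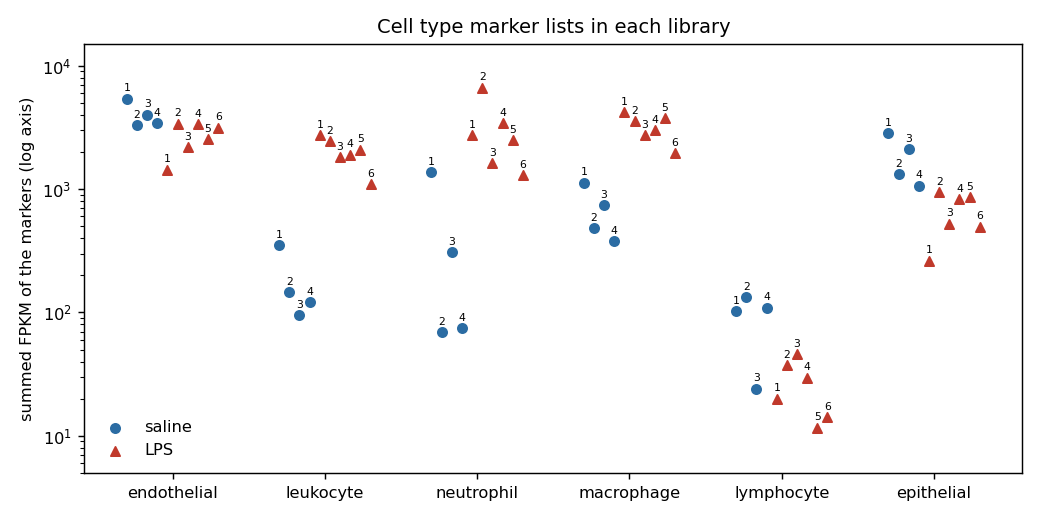
Summed FPKM (log axis) of 6 cell type marker lists in each library, with saline as circles, LPS as triangles and the replicate number above each point. The leukocyte and macrophage sums of all 6 LPS libraries lie above those of the 4 saline libraries, whereas the endothelial sums, led by Cldn5, overlap. The mean endothelial level as log2(FPKM + 1), not drawn here, was 7.85 to 8.04 in saline and 6.56 to 7.67 in LPS.

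Saline replicate 1 stood apart from the other saline libraries before any comparison. On the second principal component, which held 9.41% of the variance, it lay at 61.1 while the remaining 9 libraries lay between -20.2 and 1.5. The first component held 69.9% of the variance and separated the groups, with saline between -78.6 and -49.97 and LPS between 20.7 and 64.3. LPS replicate 6 was nearest to saline on that component and had the lowest leukocyte sum (1096 FPKM). LPS replicate 1 was farthest and had the highest leukocyte sum (2723 FPKM) and the lowest endothelial sum (1437 FPKM). Values without a single library are therefore given for called genes, and for counts of at least 3, where they move by more than 1.5 times or a call is lost. Counts of 1 or 2 members changed by 1 or 2 without a single library in several lists.

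Across all genes tested, 1768 were higher and 1011 were lower in LPS, which is 11.9% and 6.79% of the 14893 genes, and these shares are the background for every family below. A gene was called at a Benjamini-Hochberg adjusted p of at most 0.05 in limma, a linear model with a moderated variance, and a log2 fold change of at least 1 in either direction on the log2(FPKM + 1) scale. All fold changes below are on that scale, LPS over saline, with the standard error of the fit after ±, and they understate the change of genes under about 1 FPKM. The median log2 fold change over all genes was 0.01. Leaving out saline replicate 1 gave 1947 higher and 1078 lower genes. The split depended on scaling: it was 1378 higher and 1452 lower on total reads, 1366 and 1326 after quantile normalization, and 4005 and 246 when libraries were scaled on the endothelial markers, which moved the median of all genes to 0.51. That scaling turned the median of 16 of the 61 lists from negative to positive: the GBP and IRG GTPases, MHC class II, Notch, BMP and TGF-beta, vasoactive, Kruppel-like, venous and lymphatic, junction, basement membrane, glycocalyx, caveolae, coagulation, clock, glucocorticoid, mitochondrially encoded and potassium channel lists. The sign of these medians therefore depends on the scaling, which moved all genes up. Measured from the median of all genes, all 16 medians were negative both in the main fit and under endothelial scaling. In the main fit they ranged from -0.01 (coagulation) to -0.60 (clock), and under endothelial scaling from -0.03 (glucocorticoid) to -0.50 (basement membrane). This holds for each such change of sign given below.

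**Figure D2:**
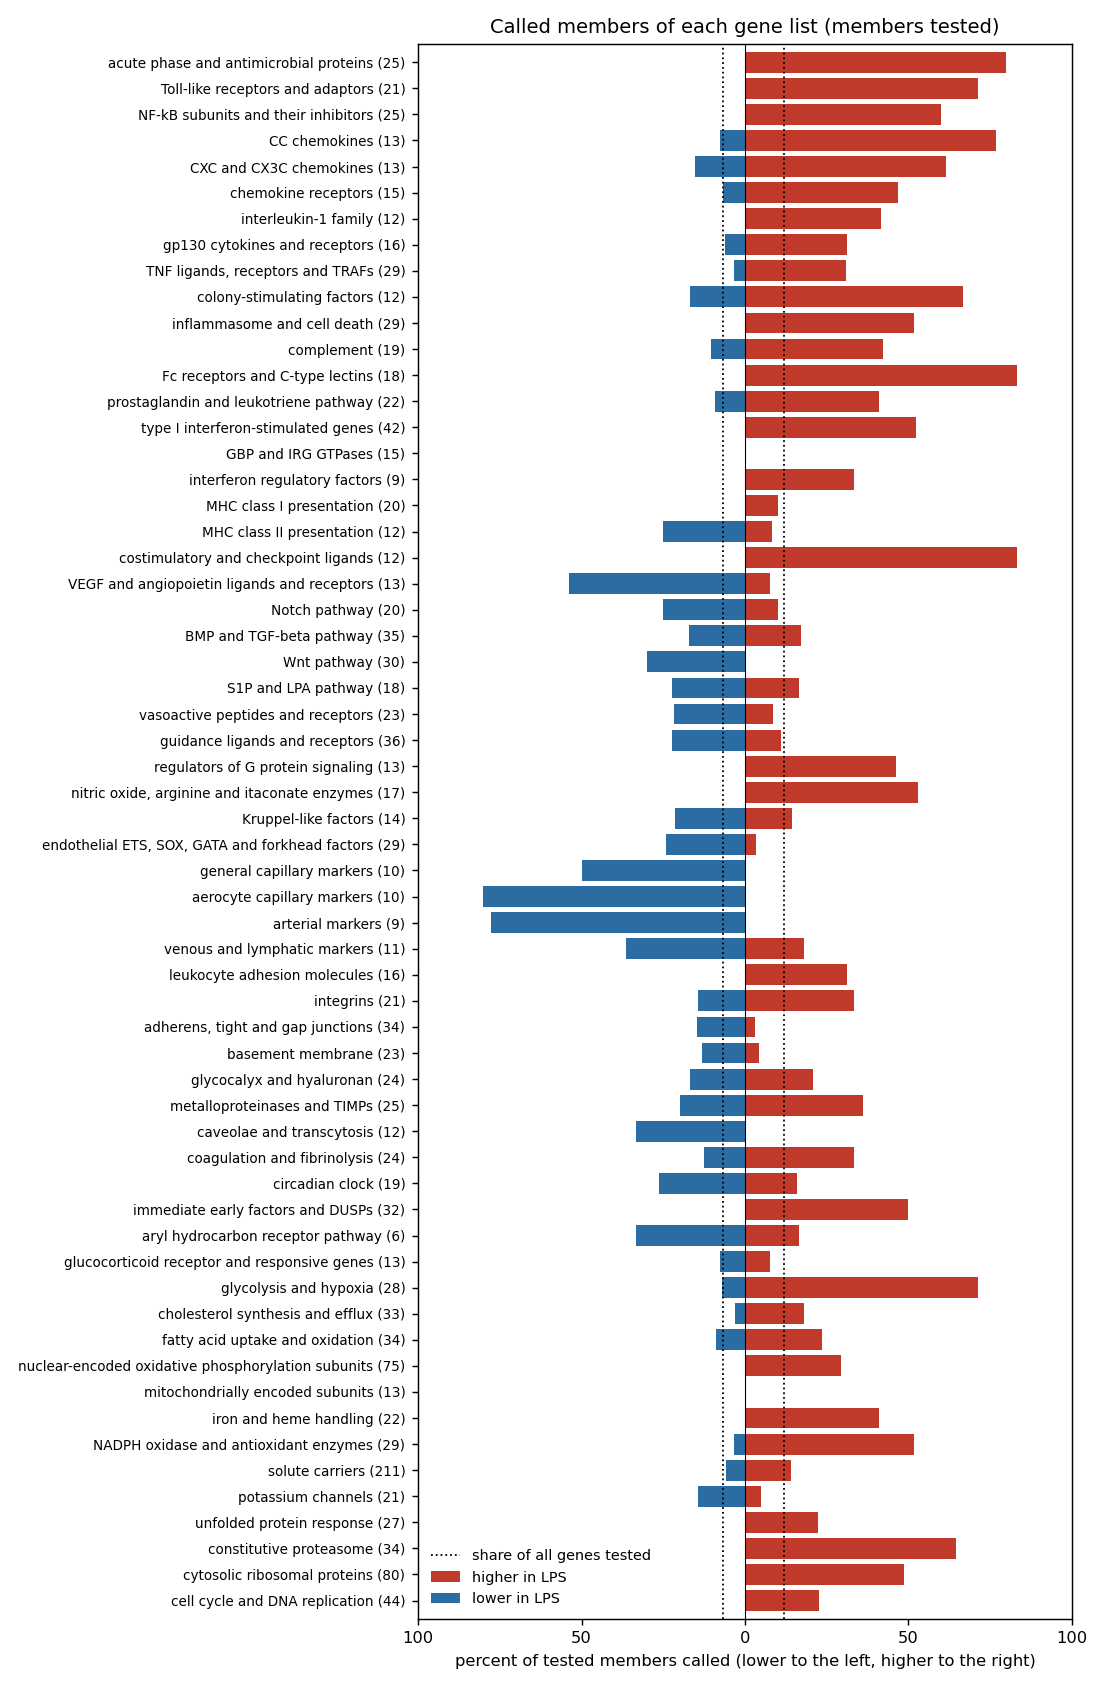
Percent of the tested members of each of 60 gene lists called higher (right) or lower (left) in LPS, with the number of members tested in brackets and dotted lines at the shares over all genes tested (11.9% higher, 6.79% lower). Inflammatory, metabolic and protein synthesis lists extend to the right and capillary, arterial and VEGF lists to the left.

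Below, saline values are given for replicates 1 to 4 in order, and LPS values as the lowest, median and highest of 6 libraries. Of the 115 genes that the rule for named genes gave to the text, 14 overlap another protein-coding gene on either strand (Irak3, Cxcl10, Cx3cr1, Csf1r, Irf7, B2m, Ciita, Bmp6, Spns2, Itga1, Col18a1, Timp1, Dbp and Fpr2). The strand of the reads is not given in the sources used here, so their values may include reads of both genes. Where a count is small its members are given in brackets, and those with no value beside them and those outside the rule were chosen after their values were seen.

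Receptors for bacterial products and the NF-kB pathway rose broadly. Of 21 Toll-like receptors and adaptors, 15 were higher and 0 lower, with a median log2 fold change of 1.67. Of 25 NF-kB subunits and inhibitors, 15 were higher and 0 lower, with a median of 1.39. Cd14, the coreceptor that hands LPS to Toll-like receptor 4, was at 95.7, 2.16, 3.42 and 2.46 FPKM in saline and at 218, 401 and 864 FPKM in LPS (log2 fold change 5.76 ± 0.86, adjusted p = 0.000268). The groups did not overlap, although saline replicate 1 held far more than the other 3, and leaving it out gave a log2 fold change of 6.94. Tlr7, a receptor for single-stranded RNA, rose from 0.889, 1.38, 0.837 and 0.871 FPKM to 14.8, 17.6 and 27.6 FPKM (log2 fold change 3.34 ± 0.18, adjusted p = 4.46e-07). Among the pathway's brakes, Tnip1, which limits NF-kB with the deubiquitinase A20, was at 11, 12.2, 10.9 and 10.7 FPKM in saline and 88.9, 125 and 154 FPKM in LPS (log2 fold change 3.33 ± 0.16, adjusted p = 2.34e-07). Its saline values were tight and well below every LPS library. Irak3, which blocks signaling from Toll-like receptors, rose by 3.31 ± 0.22 (log2). Ikbke, the kinase IKK-epsilon that activates interferon regulatory factors, rose by 4.52 ± 0.27 (log2). Leukocyte marker sums moved with these genes, and their part in them was not tested.

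Most chemokines rose, and 3 fell. In the CC family 10 of 13 members were higher and 1 lower (Ccl21a; 0 without LPS replicate 1 or without saline replicate 2, 3 or 4), with a median log2 fold change of 3.43. In the CXC and CX3C family 8 of 13 were higher and 2 lower (4 after quantile normalization), with a median of 2.09. Ccl2, which draws monocytes, was barely read in saline (0, 0.238, 0.148 and 0.0446 FPKM) and reached 35.4, 51.6 and 71 FPKM in LPS (log2 fold change 5.55 ± 0.20, adjusted p = 6.01e-08), with no overlap. The neutrophil chemokine Cxcl2 was at 131, 0.743, 5.58 and 0.590 FPKM in saline and 236, 456 and 1070.4 FPKM in LPS (log2 fold change 6.08 ± 1.07, adjusted p = 0.000768). Saline replicate 1 again held most of the saline signal, and the log2 fold change of Cxcl2 was 7.49 without it, 5.41 without saline replicate 2 and 5.36 without saline replicate 4. Cxcl3, another neutrophil chemokine, rose by 4.86 ± 0.46 (log2). Cxcl10, the interferon-inducible ligand of CXCR3, rose by 3.66 ± 0.26 (log2). Among the members that fell, Cxcl12, which retains leukocytes and progenitors through CXCR4, went from 57.3, 96.1, 64.5 and 89.5 FPKM to 14.4, 27.9 and 52.9 FPKM (log2 fold change -1.43 ± 0.32, adjusted p = 0.00317). Cx3cl1, the membrane-bound fractalkine, fell from 19.7, 29.6, 39.6 and 30.6 FPKM to 5.06, 12.7 and 15 FPKM (log2 fold change -1.31 ± 0.27, adjusted p = 0.00207). The groups were apart for both genes, but neither gene kept its call when scaled on the endothelial markers (log2 fold changes of -0.80 and -0.70). Of 15 chemokine receptors 7 were higher and 1 lower (Ackr4). Cx3cr1, the fractalkine receptor of monocytes, rose by 2.54 ± 0.16 (log2), in the libraries where macrophage marker sums also rose, and their part in it was not tested.

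Letters of the NF-kB site were counted in the promoters of the chemokines. The letters GGNNTTTCC, searched on both strands in the 250 bases before and 50 bases after each RefSeq start (GRCm38.p6), were in 5 of 10 CXC and CX3C promoters, in 2 of 9 CC promoters (22.2%), in 33.3% of 21 promoters of the NF-kB list and in 6.62% of all 27025 promoters. They were in 748 of the 9978 promoters of genes tested, in 11.3% of those of genes called higher and in 7.61% of those of genes called lower. A match is a description of the letters and not a bound site. The stretches of Cxcl2 (chr5:90903793-90903822, plus strand), Cxcl3 (chr5:90786019-90786048, plus strand) and Cxcl10 (chr5:92349028-92349057, minus strand) are shown because these genes had the 3 largest rises of the family. They run 5′ to 3′ on the strand of the gene, before its start, with the matching letters in capitals.
Cxcl2: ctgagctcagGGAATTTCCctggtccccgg
Cxcl3: agctgcggggGGAATTTCCccagcccgggc
Cxcl10: gaggggagagGGAAATTCCaagttcatggg

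Among cytokines, the colony-stimulating factors and their receptors gave 8 of 12 members higher, 2 lower (Kit and Flt3l) and a median log2 fold change of 2.95. Csf3, the growth factor of neutrophils, was close to 0 in saline (0, 0.0320, 0 and 0.144 FPKM) and was read at 23.1, 34 and 53.8 FPKM in LPS (log2 fold change 5.10 ± 0.23, adjusted p = 2.29e-07). Csf2, which sustains macrophages and neutrophils, rose by 3.78 ± 0.28 (log2). Csf1r, the macrophage receptor and one of the macrophage markers, rose by 4.81 ± 0.31 (log2). Kit, the receptor of stem cell factor and a gene of general capillary cells, fell from 77.2, 98.2, 102 and 97.2 FPKM to 23.9, 33.7 and 45.2 FPKM (log2 fold change -1.41 ± 0.18, adjusted p = 9.24e-05). The groups did not overlap, and the call was lost under endothelial scaling (-0.77). In the interleukin-1 family 5 of 12 were higher (Il1a, Il1b, Il1rn, Il1r2 and Il18rap) and 0 lower. Il1a rose from 1.46, 2.17, 1.76 and 1.65 FPKM to 33.5, 78.4 and 136 FPKM (log2 fold change 4.71 ± 0.35, adjusted p = 2.72e-06), a clean separation. Il1b was at 265, 4.46, 27.9 and 5.25 FPKM in saline and 266, 634 and 1137 FPKM in LPS, so saline replicate 1 lay just under the lowest LPS library. Its log2 fold change of 4.83 ± 0.94 became 6.01 without that replicate, 4.14 without saline replicate 2 and 4.21 without saline replicate 4. Of 29 TNF ligands, receptors and adaptors 9 were higher and 1 lower (Tnfrsf25), or 3 lower without saline replicate 1, 4 at a pseudocount of 0.1 and 5 in limma-voom. Tnf itself was at 0.738, 0.469, 0.444 and 0.341 FPKM in saline and 25.3, 47.6 and 89.2 FPKM in LPS (log2 fold change 5.11 ± 0.31, adjusted p = 9.91e-07). Its second receptor Tnfrsf1b rose by 4.52 ± 0.26 (log2). Cytokines and receptors of the gp130 group gave 5 of 16 higher (Il6, Il6ra, Osm, Socs1 and Socs3) and 1 lower, or 3 lower without LPS replicate 3, on total reads or after quantile normalization. Il6ra, the interleukin-6 receptor, rose by 2.36 ± 0.29 (log2). Il6st, which encodes gp130 itself, fell from 51.7, 62.8, 67.3 and 66.2 FPKM to 19.8, 31.2 and 41 FPKM (log2 fold change -1.06 ± 0.18, adjusted p = 0.00071). This fall was not called without LPS replicate 1 (-0.95), under endothelial scaling (-0.42) or with the trend in gene length and GC content removed (-0.73). Leukocyte, neutrophil and macrophage sums rose in the libraries where these cytokines rose, and their part was not tested.

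Of 42 type I interferon-stimulated genes 22 were higher and 0 lower, with a median log2 fold change of 1.06. Their mean level, as log2(FPKM + 1), was 3.68 ± 0.25 (SD, n = 4) in saline and 4.87 ± 0.21 (SD, n = 6) in LPS. Of 15 GBP and IRG GTPases, which attack pathogen vacuoles and are driven mainly by interferon gamma, 0 were higher and 0 lower. Their mean level was 3.86 ± 0.73 in saline and 3.71 ± 0.24 in LPS. In limma 5 of the 15 had an unadjusted p under 0.05, and limma-voom on recovered reads called 1 higher and 1 lower. Among the other alternatives at most 3 were higher (endothelial scaling) and at most 2 lower (quantile normalization, and without saline replicate 1). The median log2 fold change of the GTPases was -0.14 and became 0.48 under endothelial scaling. The difference between the lists itself was not tested. Ifi204, a sensor of DNA, was at 2.06, 1.51, 1.89 and 0.585 FPKM in saline and 22.4, 32.5 and 51 FPKM in LPS (log2 fold change 3.85 ± 0.25, adjusted p = 1.23e-06). Zbp1, a sensor of left-handed nucleic acid, was at 2.61, 5.49, 3.78 and 2.56 FPKM in saline and 26.6, 33.5 and 47 FPKM in LPS (log2 fold change 2.98 ± 0.21, adjusted p = 2.06e-06). In neither gene did the groups overlap. Ifi27l2a rose by 3.74 ± 0.32 (log2) and Irf7, the regulator that amplifies the type I response, by 3.35 ± 0.25 (log2), and of 9 interferon regulatory factors 3 were higher (Irf5, Irf7 and Irf8) and 0 lower. By contrast Gbp2 was at 22.6, 60.1, 59.9 and 42.9 FPKM in saline and 31.3, 39.9 and 50.4 FPKM in LPS (log2 fold change -0.14 ± 0.26, adjusted p = 0.67). Igtp was at 8.49, 45.8, 36.3 and 17.9 FPKM in saline and 23.7, 29.1 and 45.9 FPKM in LPS (log2 fold change 0.40 ± 0.38, adjusted p = 0.392). For both GTPases the LPS libraries lay within or close to the spread of the saline ones. All 6 leukocyte markers and 7 of 8 macrophage markers were higher in the same libraries, and their part in the interferon lists was not tested. Members of the GBP, IRG, Oas and Ifit families resemble each other in sequence, and the treatment of reads that fit several copies is not given in the sources used here.

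Letters of the interferon response element were counted in both lists. GAAANNGAA was in 63.3% of 30 promoters of the type I list, in 90.0% of 10 promoters of the GBP and IRG list, in 9.76% of all promoters and in 9.14% of those of the genes tested. The share was 12.8% for genes called higher and 7.77% for genes called lower. Stretches of Isg15 (chr4:156200877-156200906, minus strand) and Oas3 (chr5:120777715-120777744, minus strand) are set against Gbp2 (chr3:142620595-142620624, plus strand) and Igtp (chr11:58199512-58199541, plus strand) because all 4 hold the letters while only the first pair was called. These 4 genes were chosen after their values were seen, and the ubiquitin-like modifier Isg15 rose by 2.40 ± 0.33 and the RNase L activating enzyme Oas3 by 2.30 ± 0.27 (log2). The matching letters of either strand are in capitals, and where matches overlap the run of capitals is longer.
Isg15: tatgccgtagGAAAAGGAAACCGAAacaga
Oas3: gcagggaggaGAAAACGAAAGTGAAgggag
Gbp2: ctcttttagtTTCACTTTCactgtcttaag
Igtp: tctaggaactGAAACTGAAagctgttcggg

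**Figure D3:**
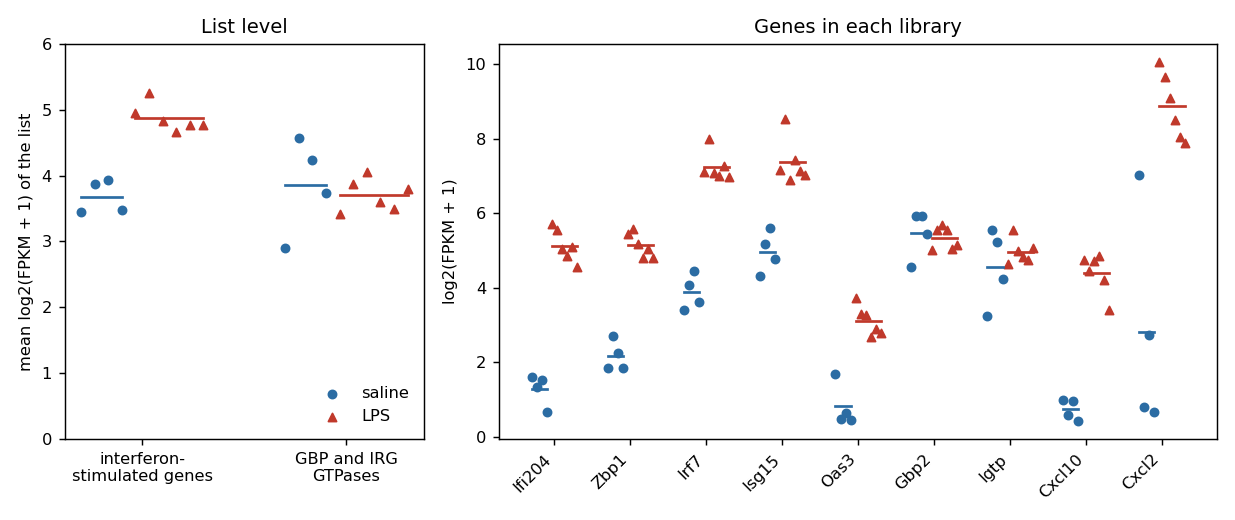
Left, mean log2(FPKM + 1) of the type I interferon-stimulated genes and of the GBP and IRG GTPases in each library. Right, log2(FPKM + 1) of 9 genes, with saline as circles, LPS as triangles and lines at the group means: Ifi204, Zbp1, Irf7, Isg15, Oas3, Cxcl10 and Cxcl2 separate the groups, whereas Gbp2 and Igtp overlap.

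In the MHC class I list 10% of genes were higher and 0% lower, and in the class II list 8.33% and 25%. The shares over all genes tested were 11.9% and 6.79%. Of 20 genes of MHC class I presentation 2 were higher (B2m and Psmb8) and 0 lower, with a median log2 fold change of 0.38. Under endothelial scaling 11 were higher and the median was 1.02, and after quantile normalization 0 were higher. B2m, the light chain of class I, rose from 1929, 1958, 2166 and 1429 FPKM to 3801, 4350.4 and 6193 FPKM (log2 fold change 1.28 ± 0.28, adjusted p = 0.00306), a call lost after quantile normalization (0.64), with the replicate block (1.29) and with no filter (1.28). Of 12 class II genes 1 was higher and 3 were lower (Ciita, H2-Ob and H2-DMb2). The gene that rose was Ctss, a protease of macrophage lysosomes (log2 fold change 3.92 ± 0.28). Ciita, the master regulator of class II, fell from 2.51, 8.04, 2.47 and 4.39 FPKM to 0.756, 0.917 and 1.99 FPKM (log2 fold change -1.27 ± 0.26, adjusted p = 0.00215), beside the fall of lymphocyte markers, whose part in it was not tested. The median of the class II list was -0.42, and 0.23 under endothelial scaling. Without saline replicate 2 only 1 class II gene was lower and Ciita was not called (-0.98), nor was it under endothelial scaling (-0.83), where 1 class II gene was lower. Among 12 costimulatory and checkpoint ligands 10 were higher and 0 lower. Cd274, which encodes PD-L1, was at 5.97, 11.4, 10.6 and 7.20 FPKM in saline and 43.5, 55.3 and 127 FPKM in LPS (log2 fold change 2.78 ± 0.31, adjusted p = 3.61e-05), with the groups well apart. The medians of the leukocyte and macrophage markers were 3.20 and 3.83 (log2 fold change) in the same comparison, and their part in this rise was not tested.

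Fc receptors, C-type lectins and acute phase proteins rose in most of their members, and complement and lipid mediator genes in fewer. Of 18 Fc receptors and C-type lectins 15 were higher and 0 lower (median log2 fold change 3.94). Of 25 acute phase and antimicrobial proteins 20 were higher and 0 lower (median 2.65). Fcer1g, the common chain of activating Fc receptors, rose from 68.2, 12, 16.3 and 10.1 FPKM to 413, 717 and 969 FPKM (log2 fold change 5.12 ± 0.46, adjusted p = 9.76e-06). Its log2 fold change was 5.71 when saline replicate 1 was left out. The complement list gave 8 higher and 2 lower (Hc and Cd55) of 19, or 4 lower on total reads or after quantile normalization. All 3 chains of C1q, made mainly by macrophages, rose together, with C1qb from 2.71, 0.955, 0.875 and 2.38 FPKM to 89.9, 158 and 245 FPKM (log2 fold change 5.86 ± 0.32, adjusted p = 5.8e-07). C1qa and C1qc rose by 5.11 ± 0.32 and 4.63 ± 0.31 (log2). Hc, complement C5, fell from 10.9, 6.72, 5.51 and 4.94 FPKM to 0.607, 0.911 and 1.10 FPKM (log2 fold change -2.03 ± 0.18, adjusted p = 9.52e-06). Epithelial marker sums were also lower in every LPS library than in every saline library, and their part in the fall of Hc was not tested. Lipid mediator genes gave 9 higher and 2 lower (Tbxa2r and Cysltr2) of 22. Pla2g7, the hydrolase of platelet-activating factor, and Ltb4r1, the leukotriene B4 receptor, rose by 5.51 ± 0.43 and 4.39 ± 0.37 (log2). Tbxa2r, the thromboxane receptor, had a log2 fold change of -1.19 ± 0.25, a call lost under endothelial scaling (-0.65). Among inflammasome and cell death genes 15 of 29 were higher and 0 lower (23 higher under endothelial scaling), with the survival factor Bcl2a1b at a log2 fold change of 4.42 ± 0.30, although its near-identical copies may share reads. The leukocyte, neutrophil and macrophage sums rose in the same libraries, and their part in these families was not tested.

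Selectins rose, and thrombomodulin fell. Of 16 leukocyte adhesion molecules 5 were higher (Sele, Selp, Icam1, Cd44 and Selplg) and 0 lower, or 9 higher under endothelial scaling. Sele, E-selectin, a gene of activated endothelium that first slows neutrophils, was at 2.67, 1.02, 0.981 and 0.995 FPKM in saline and 11.8, 27.6 and 36.7 FPKM in LPS (log2 fold change 3.36 ± 0.32, adjusted p = 1.42e-05). Selp, P-selectin, which is stored in endothelial granules and platelets, rose from 7.18, 2.72, 0.787 and 1.54 FPKM to 9.5, 13.8 and 27.1 FPKM (log2 fold change 2.14 ± 0.39, adjusted p = 0.000945). The groups were apart for each selectin, and 3 of 5 platelet markers were also called higher. In the coagulation list 8 of 24 were higher and 3 lower (Thbd, Gas6 and Vwf), or 10 and 0 under endothelial scaling. The mean level of the list, as log2(FPKM + 1), was 4.33 in saline replicate 1 and 3.33 to 3.45 in the other saline libraries, against 4.09 to 4.47 in LPS. F10, factor X, rose by 5.68 ± 0.36 (log2). Thbd, thrombomodulin, the endothelial cofactor that turns thrombin to an anticoagulant, fell from 627, 520.1, 591 and 621 FPKM to 146, 293 and 404 FPKM (log2 fold change -1.10 ± 0.26, adjusted p = 0.00422). Without LPS replicate 1 only 1 gene of the list was lower and Thbd was not called (-0.92), nor was it under endothelial scaling (-0.45). Of 21 integrins 7 were higher and 3 lower (Itga1, Itga6 and Itga8), or 11 higher under endothelial scaling and 5 lower on total reads. Itgam and Itgb2, the chains of the leukocyte integrin Mac-1, rose by 5.08 ± 0.33 and 4.31 ± 0.32 (log2). Itgb2 is itself one of the 6 leukocyte markers, whose sums, like those of the macrophage markers, were higher in every LPS library than in any saline library, and their part in the adhesion, coagulation and integrin genes was not tested. Itga1, a collagen-binding chain, fell from 38.9, 50.8, 42.6 and 52.9 FPKM to 8.74, 13 and 21.2 FPKM (log2 fold change -1.69 ± 0.20, adjusted p = 6.77e-05).

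Genes that mark lung capillaries fell, with list medians below that of the general endothelial markers. Of 10 markers of aerocytes, the wide capillary cells that face the alveolus, 8 were lower and 0 higher, with a median log2 fold change of -1.56. Of 10 general capillary markers 5 were lower (Aplnr, Glp1r, Ptprb, Kit and Tek) and 0 higher, with a median of -1.04. The 10 endothelial markers had a median of -0.63, and when the libraries were scaled on them 4 aerocyte and 2 general capillary markers were lower, while after quantile normalization 8 general capillary markers were lower. The difference between these lists was not tested, and 2 of the general capillary genes (Ptprb and Tek) are also among the endothelial markers. Ednrb, the endothelin receptor B, fell from 48.1, 57.8, 88.3 and 59.6 FPKM to 5.39, 11.9 and 15.6 FPKM (log2 fold change -2.44 ± 0.28, adjusted p = 5.06e-05). Emp2, a tetraspan membrane protein, fell from 98.4, 119, 147 and 111 FPKM to 9.40, 23.5 and 32.1 FPKM (log2 fold change -2.38 ± 0.29, adjusted p = 7.48e-05). The groups were far apart for both genes, and both kept their calls under endothelial scaling. Ptprb, the endothelial phosphatase VE-PTP, fell from 259.7, 281, 232 and 285 FPKM to 52.6, 80.4 and 149.7 FPKM (log2 fold change -1.62 ± 0.27, adjusted p = 0.000509) and lost its call there (-0.98). Of 9 arterial markers 7 were lower and 0 higher (median -1.22). Gja4, connexin 37, fell from 186, 127, 106 and 111 FPKM to 25.8, 41.6 and 72.8 FPKM (log2 fold change -1.62 ± 0.27, adjusted p = 0.00052), a call lost under endothelial scaling (-0.98). Without saline replicate 1 the arterial count was 4, and under endothelial scaling it was 1. Of 11 venous and lymphatic markers 2 were higher (Selp and Ackr1) and 4 lower (Flt4, Vwf, Ccl21a and Slc6a2), or 2 lower without LPS replicate 1 and 1 lower under endothelial scaling.

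Several genes of VEGF and angiopoietin signaling fell, mainly receptors. Of 13 members 7 were lower and 1 higher, with a median log2 fold change of -1.07. Vegfa, the main growth factor of vessels, was at 216, 187, 204 and 194 FPKM in saline and 45.2, 60.6 and 103 FPKM in LPS (log2 fold change -1.66 ± 0.22, adjusted p = 0.000108). Kdr, VEGF receptor 2, was at 64.8, 137, 169 and 131 FPKM in saline and 22.6, 39.5 and 53.6 FPKM in LPS (log2 fold change -1.63 ± 0.28, adjusted p = 0.000662). Their coreceptor Nrp1 fell from 52.7, 71.3, 74.7 and 67.6 FPKM to 14.5, 25.1 and 34.3 FPKM (log2 fold change -1.42 ± 0.21, adjusted p = 0.000255). Every LPS library was under every saline library for all 3 genes. Epithelial marker sums were also lower in every LPS library than in every saline library, although the mean level of these markers overlapped. The part of epithelium in the fall of Vegfa was not tested. The single member that rose was Pgf, placental growth factor, from 0.521, 0.576, 0.309 and 0.875 FPKM to 2.02, 3.49 and 5.69 FPKM (log2 fold change 1.57 ± 0.20, adjusted p = 0.000102). Under endothelial scaling 1 member was lower and 2 were higher, with the calls of Kdr and Nrp1 lost (-0.99 and -0.78) and the list's median at -0.49. Of the 13 members 2 are also among the endothelial markers on which that scaling rests.

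Except for the Wnt list, the lists of developmental pathways had members called higher and members called lower. Leukocyte and macrophage sums were higher in every LPS library than in any saline library, and their part in the rises of these lists was not tested. Of 30 Wnt genes 9 were lower and 0 higher, with 16 lower at a pseudocount of 0.1 and 17 in limma-voom. The receptor Fzd8 fell from 9.13, 7.04, 8.30 and 7.56 FPKM to 1.85, 2.60 and 3.47 FPKM (log2 fold change -1.35 ± 0.14, adjusted p = 3.01e-05). Axin2, the feedback inhibitor and common readout of the pathway, fell from 4.30, 4.30, 4.37 and 5.32 FPKM to 0.716, 1.24 and 1.66 FPKM (log2 fold change -1.35 ± 0.13, adjusted p = 1.88e-05). Their saline values were tight and no LPS library reached them, but both calls were lost under endothelial scaling (-0.82 and -0.88), as were those of all 9 Wnt genes, and 2 others became higher. Of 20 Notch genes 5 were lower (Hey1, Dll4, Maml2, Notch3 and Notch1) and 2 higher (Notch2 and Rbpj). Hey1, an arterial Notch target, fell from 76.6, 139, 136 and 114 FPKM to 15.7, 24.1 and 40.4 FPKM (log2 fold change -2.09 ± 0.26, adjusted p = 7.57e-05). Notch1 and Notch2 took opposite signs at -1.07 ± 0.25 and 1.24 ± 0.28 (log2), each losing its call when 1 library was left out (-0.90 without LPS replicate 2 and 0.99 without saline replicate 3). Notch1 was not called under endothelial scaling (-0.46) or with the length and GC trend removed (-0.63). Without saline replicate 3 0 Notch genes were higher, and under endothelial scaling 4 were higher and 1 lower. In the BMP and TGF-beta pathway 6 of 35 rose and 6 fell, or 10 and 1 under endothelial scaling, and 12 fell after quantile normalization. Tgfb1 rose from 23, 21.1, 23.2 and 21 FPKM to 48.2, 65.8 and 76 FPKM (log2 fold change 1.48 ± 0.13, adjusted p = 1.02e-05). Id2, a target of BMP signals, rose by 1.92 ± 0.21 (log2). The ligands Bmp4 and Bmp6 fell with signed log2 fold changes of -1.70 ± 0.31 and -1.17 ± 0.18, and the call of Bmp6 was lost under endothelial scaling (-0.53). Among 36 guidance genes 8 were lower and 4 higher (Sema4a, Sema4d, Sema7a and Plxnb2), with the basement membrane netrin Ntn4 at -2.14 ± 0.27 and Sema6a at -1.82 ± 0.18 (log2). The lower count was 11 on total reads, 14 after quantile normalization and 3 under endothelial scaling. Sema4d, a semaphorin of leukocytes, rose by 3.49 ± 0.31 (log2). Of 29 endothelial transcription factors, mainly of the ETS, SOX, GATA and forkhead groups, 7 were lower and 1 was higher (Lyl1, a basic helix-loop-helix factor). In the same order of scalings 12, 17 and 2 of them were lower. The T-box factor Tbx2 of the aerocyte list fell from 61.1, 89, 107 and 99.5 FPKM to 11.7, 26.4 and 37.4 FPKM (log2 fold change -1.78 ± 0.28, adjusted p = 0.000375). Klf2, the flow-responsive factor of quiescent endothelium, rose from 227, 222, 202 and 260.1 FPKM to 449, 522 and 665 FPKM (log2 fold change 1.21 ± 0.16, adjusted p = 0.000153). The groups did not overlap, and the call was lost after quantile normalization (0.66). Of 14 Kruppel-like factors 2 were higher (Klf2 and Klf6) and 3 lower (Klf9, Klf12 and Klf15), or 1 lower without saline replicate 1, and 5 higher and 0 lower under endothelial scaling.

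**Figure D4:**
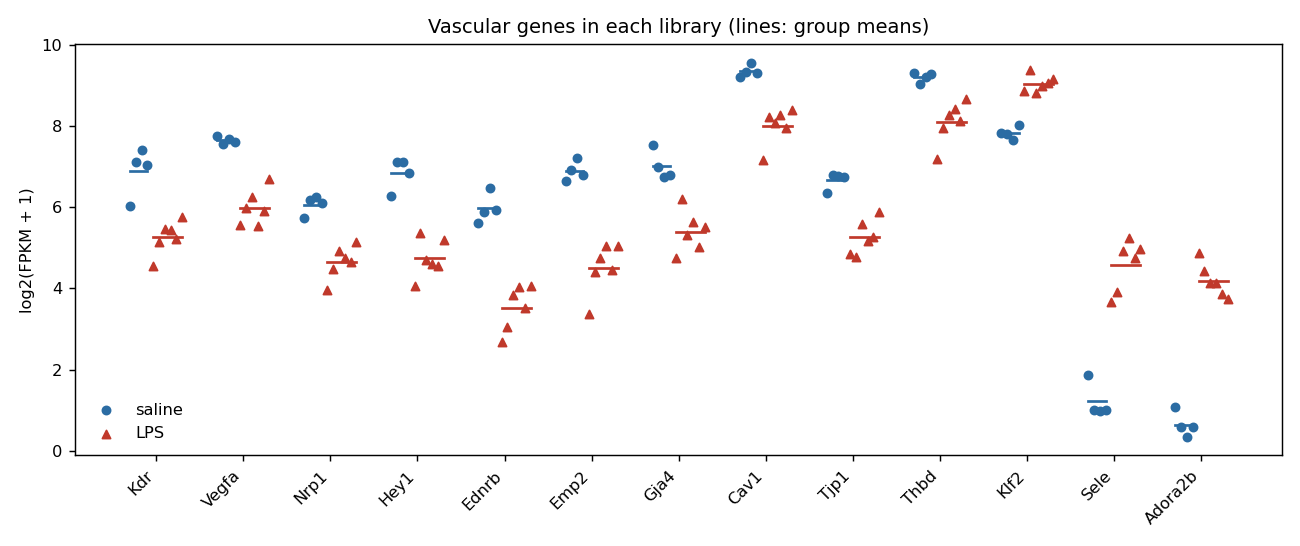
Values of 13 vascular genes as log2(FPKM + 1) in each library, with saline as circles, LPS as triangles and lines at the group means. From Kdr to Thbd the LPS libraries lie below the saline libraries, and from Klf2 to Adora2b they lie above. All 13 were drawn from called genes chosen for groups that did not overlap.

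Junction genes were lower in a few members by the threshold used here, and most of the others had negative log2 fold changes. Of 34 genes of adherens, tight and gap junctions 5 were lower (Tjp1, Gja4, Gja5, Nectin3 and Cldn18) and 1 higher (Cldn1), with a median log2 fold change of -0.44 that became 0.14 under endothelial scaling. Measured from the median of all genes, the list stood at -0.46 in the main fit and at -0.37 under endothelial scaling. The lower count was 3 without saline replicate 1 or without LPS replicate 1, 11 after quantile normalization and 0 under endothelial scaling. Of the 34 genes 27 had a negative log2 fold change, and in 14 every LPS library was under every saline library, against 16.7% of all genes tested. Epithelial marker sums, led by Sftpc, were also lower in every LPS library than in every saline library. Of the 9 epithelial markers 2 were called lower, and their mean level, as log2(FPKM + 1), overlapped (4.48 to 6.25 in saline, 3.85 to 5.27 in LPS). The part of epithelium in junction and basement membrane genes that it expresses, such as Cldn18, Lama3 and Col4a3, was not tested. Tjp1, the scaffold ZO-1, was at 80.8, 110.3, 108 and 106 FPKM in saline and 26.3, 36.4 and 57.9 FPKM in LPS (log2 fold change -1.41 ± 0.22, adjusted p = 0.000322). The groups were apart, and the call was lost under that scaling (-0.77). Of 12 genes of caveolae and transcytosis 4 were lower (Cav1, Cav2, Cavin2 and Ehd4) and 0 higher. Cav1, which forms the caveolar coat, fell from 587, 648, 754 and 636 FPKM to 143, 283 and 333 FPKM (log2 fold change -1.34 ± 0.23, adjusted p = 0.000749), and Cavin2 had a log2 fold change of -1.15 ± 0.24, a call lost without LPS replicate 1 (-0.9996). The count was 1 without LPS replicate 1 and 2 without saline replicate 3, and the list's median of -0.52 became 0.07 under endothelial scaling, where neither gene was called (-0.69 and -0.51). After quantile normalization 7 of the 12 were lower and the median was -1.14. The caveolae list, measured from the median of all genes, stood at -0.54 in the main fit and at -0.44 under endothelial scaling. In the basement membrane list 1 of 23 was higher and 3 were lower (Col4a3, Col4a5 and Lama3), or 1 lower without saline replicate 1 and 5 without saline replicate 3 or 4. The lower count was 7 on total reads, 5 after quantile normalization, 8 at a pseudocount of 0.1 and 9 in limma-voom, whereas under endothelial scaling 5 were higher and 0 lower. With the filter at a mean of 2 FPKM, 16 genes of the list were tested and 0 were lower. The gene that rose was Col18a1, the source of endostatin (log2 fold change 2.43 ± 0.33). Of 24 glycocalyx genes 5 were higher (Sdc1, Sdc4, Cd44, Hpse and Vcan) and 4 lower (Sdc2, Gpc3, Hs3st1 and Sulf1), with the proteoglycan Sdc4 at 1.86 ± 0.20 (log2), and none of the 24 was lower under endothelial scaling. Proteases and their inhibitors gave 9 higher and 5 lower (Adamts10, Mmp11, Mmp15, Mmp28 and Timp2) of 25, with 2 lower under endothelial scaling. The list's mean level, as log2(FPKM + 1), was 3.69 in saline replicate 1 and 2.91 to 2.96 in the other saline libraries, against 3.52 to 3.86 in LPS. Its members Mmp8 and Mmp9, both called higher, are among the neutrophil markers, and the part of neutrophils and macrophages in this list was not tested. Timp1, an inhibitor of metalloproteinases, rose from 2.64, 0.865, 0.946 and 0.858 FPKM to 27.3, 51.8 and 76 FPKM (log2 fold change 4.53 ± 0.28, adjusted p = 1.1e-06). Mmp14, a membrane-bound metalloproteinase, rose by 2.38 ± 0.17 (log2). Adamts10 fell from 49.7, 46.2, 43.6 and 46.3 FPKM to 8.14, 11.3 and 16.1 FPKM (log2 fold change -1.93 ± 0.17, adjusted p = 6.8e-06).

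Of 23 vasoactive peptides and receptors 2 were higher (Adora2a and Adora2b) and 5 lower (Aplnr, Ednrb, Npr1, Npr2 and Npr3), or 8 lower without saline replicate 1. The list's median of -0.58 became 0.07 under endothelial scaling, with 5 higher and 4 lower, and the lower count was 8 on total reads and 9 after quantile normalization. Adora2b, the low-affinity adenosine receptor, was at 1.11, 0.514, 0.273 and 0.496 FPKM in saline and 12.3, 16.4 and 28.6 FPKM in LPS (log2 fold change 3.54 ± 0.22, adjusted p = 1.1e-06). The lowest LPS value was far above the highest saline value. In the sphingosine 1-phosphate (S1P) and lysophosphatidic acid pathway 3 of 18 were higher (S1pr5, Lpar5 and Sgpl1) and 4 lower (Spns2, Plpp3, Enpp2 and S1pr3). S1pr5, an S1P receptor of monocytes and natural killer cells, rose by 2.99 ± 0.19 (log2). Leukocyte and macrophage marker sums rose in the same libraries, and their part in the rises of Adora2b and S1pr5 was not tested. Spns2, the transporter that exports S1P from ECs, fell from 56.3, 72.3, 71.3 and 73.7 FPKM to 13.2, 23.8 and 30.1 FPKM (log2 fold change -1.58 ± 0.20, adjusted p = 8.49e-05). Plpp3, which degrades lysophosphatidic acid, had a log2 fold change of -1.39 ± 0.22. The calls of Spns2 and Plpp3 were lost under endothelial scaling (-0.94 and -0.75), where 6 genes of the list were higher and 0 lower. Of 17 enzymes of nitric oxide, arginine and itaconate 9 were higher and 0 lower, in the libraries where leukocyte and macrophage markers also rose, and their part was not tested. Acod1, which makes itaconate, rose by 5.36 ± 0.73 (log2), or 6.32 without saline replicate 1. Of 13 regulators of G protein signaling 6 were higher and 0 lower, or 2 lower on total reads, at a pseudocount of 0.1 and in limma-voom. The part of leukocytes and macrophages in these regulators was not tested either. Among 21 potassium channels 1 was higher (Kcnab2) and 3 were lower (Kcnq1, Kcnh1 and Kcnk3), or 1 lower without saline replicate 1. Kcnq1 had a log2 fold change of -1.47 ± 0.19, and none of the 21 was lower under endothelial scaling (-0.92 for Kcnq1), while 6 were lower at a pseudocount of 0.1 and in limma-voom.

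Of 19 clock genes 3 were higher (Cry1, Bhlhe40 and Nfil3) and 5 lower (Ciart, Dbp, Nr1d1, Nr1d2 and Per3), with a median log2 fold change of -0.59 that became 0.03 under endothelial scaling, and with 8 lower at a pseudocount of 0.1. Cry1, a repressor of the clock, was at 5.43, 3.90, 3.34 and 4.05 FPKM in saline and 13.8, 16.1 and 19.8 FPKM in LPS (log2 fold change 1.76 ± 0.13, adjusted p = 2.78e-06). Bhlhe40, another repressor, rose from 16.1, 4.07, 4.70 and 4.41 FPKM to 28, 39.4 and 59.9 FPKM (log2 fold change 2.45 ± 0.33, adjusted p = 0.000153). Ciart, a repressor that binds BMAL1, fell from 32.6, 14.8, 15.1 and 16.5 FPKM to 3.34, 4.75 and 6.58 FPKM (log2 fold change -1.80 ± 0.23, adjusted p = 9.82e-05). For Cry1 and Ciart the groups were far apart. Saline replicate 1 differed from the other saline libraries in several of these genes: it held 1.92 FPKM of the output factor Dbp against 19.1 to 25.2 FPKM, and it was high in Bhlhe40, Ciart and Fkbp5. The log2 fold change of Dbp was -2.77 ± 0.51, and -3.52 without that library. Per1, named here after its values were seen, was at 134, 17.9, 10.8 and 17.5 FPKM in saline and 21.6, 28 and 30.7 FPKM in LPS and was not called (adjusted p = 0.96). The hour of collection is not given in the sources used here. CACGTG, the E-box of the clock, was in 26.7% of 15 clock promoters, 8.09% of all promoters, 11.6% of those of the genes tested, 12.5% of those of genes called higher and 8.41% of those of genes called lower. Stretches of Cry1 (chr10:85185097-85185126, minus strand) and Ciart (chr3:95882327-95882356, minus strand) are shown because both hold it while Cry1 rose and Ciart fell, with its letters in capitals.
Cry1: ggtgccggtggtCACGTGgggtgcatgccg
Ciart: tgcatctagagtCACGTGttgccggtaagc

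Of 32 immediate early factors and DUSP phosphatases 16 were higher and 0 lower. Their mean level, as log2(FPKM + 1), was 4.46 in saline replicate 1, 3.42 to 3.43 in the other saline libraries and 4.59 to 5.05 in LPS. Leukocyte and macrophage sums rose in the same libraries, and their part in these genes was not tested. Nr4a1, an orphan nuclear receptor, rose from 26.6, 8.46, 10.8 and 6.81 FPKM to 96.3, 176 and 316 FPKM (log2 fold change 3.80 ± 0.37, adjusted p = 1.74e-05). In the aryl hydrocarbon receptor pathway 1 of 6 was higher (Nqo1; 2 without saline replicate 1, 0 without saline replicate 2) and 2 were lower (Ahr and Cyp1a1). The receptor gene Ahr fell from 21.1, 60.2, 66.3 and 60.2 FPKM to 10.4, 12.3 and 18.9 FPKM (log2 fold change -1.79 ± 0.30, adjusted p = 0.000541). Of 13 glucocorticoid genes 1 was higher and 1 lower (Nr3c2), or 4 higher without saline replicate 1. The one that rose was Fkbp5, a cochaperone and glucocorticoid target, from 15.1, 1.03, 0.733 and 1.11 FPKM to 25.6, 31.3 and 48.3 FPKM (log2 fold change 3.37 ± 0.54, adjusted p = 0.000446). Saline replicate 1 lay between the other saline libraries and the LPS libraries, and the log2 fold change was 4.13 without it.

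Most genes of glycolysis rose. Of 28 genes of glycolysis and hypoxia 20 were higher and 2 lower (Epas1 and Pfkm), with a median log2 fold change of 1.31, and from 16 to 21 were higher under the scalings tried. Eno1, enolase, rose from 24.2, 17.6, 19.4 and 19.6 FPKM to 94.9, 192 and 241 FPKM (log2 fold change 3.00 ± 0.24, adjusted p = 3.97e-06), with the groups well apart. Slc16a3, the exporter of lactate, rose by 3.62 ± 0.49 (log2), or 4.29 without saline replicate 1. By contrast, Epas1, the hypoxia factor HIF-2 alpha that is abundant in lung endothelium, fell from 1384, 1193, 1305 and 1318 FPKM to 341, 607 and 844 FPKM (log2 fold change -1.17 ± 0.25, adjusted p = 0.00243). This call was lost under endothelial scaling (-0.52). Lipid genes gave 8 of 34 higher and 3 lower (Scd2, Slc27a3 and Tcf15) in fatty acid handling and 6 of 33 higher and 1 lower (Mylip) in cholesterol handling. Under endothelial scaling 16 and 17 were higher and 0 lower in either list. Fabp5, a fatty acid carrier, was at 4.60, 3.47, 3.39 and 4.27 FPKM in saline and 32.7, 75.1 and 88.3 FPKM in LPS (log2 fold change 3.73 ± 0.25, adjusted p = 1.35e-06). The lipid droplet coat Plin2 and the hydroxylase Ch25h rose by 3.17 ± 0.19 and 3.06 ± 0.24 (log2). These rises occurred in the libraries with higher leukocyte and macrophage sums, whose part in them was not tested.

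Iron, heme and redox genes rose in part, and few fell. Of 22 iron and heme genes 9 were higher and 0 lower. Hmox1, heme oxygenase 1, was at 12.8, 6.92, 7.83 and 7.98 FPKM in saline and 187, 252 and 307 FPKM in LPS (log2 fold change 4.67 ± 0.19, adjusted p = 1.34e-07). Fth1, the heavy chain of ferritin, rose from 1167, 592, 678 and 613 FPKM to 3966, 5452 and 9859 FPKM (log2 fold change 2.97 ± 0.34, adjusted p = 5.15e-05). In both genes the lowest LPS library was above the highest saline library. Erythroid markers summed to 25.3, 6.12, 12.6 and 13.3 FPKM in saline and 20.8, 43.8 and 73.8 FPKM in LPS, led by Hba-a1, with 3 of 4 called higher, and macrophage sums rose as well. Of 29 NADPH oxidase and antioxidant genes 15 were higher and 1 lower (Sod3). Cybb, the catalytic chain of the phagocyte oxidase, rose by 3.85 ± 0.28 (log2). Sod3, the extracellular superoxide dismutase, fell from 30.4, 27.2, 20.1 and 26.4 FPKM to 6.95, 12.1 and 17 FPKM (log2 fold change -1.09 ± 0.21, adjusted p = 0.00153), and was not called without LPS replicate 1 (-0.96) or under endothelial scaling (-0.48). Of 211 solute carriers 30 were higher and 12 lower, or 64 and 6 under endothelial scaling and 47 and 25 in limma-voom, and they included Slc7a11, the cystine importer, at 2.99 ± 0.39 (log2). Leukocyte sums moved with the oxidase genes, and the part of these cell types in the iron, heme and oxidase genes was not tested.

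Some genes of protein synthesis, protein degradation and respiration rose, in numbers that depend on the scaling. Of 80 cytosolic ribosomal proteins 39 were higher and 0 lower (median log2 fold change 0.99). Of 34 proteasome subunits 22 were higher and 0 lower (median 1.12). Of 75 nuclear-encoded subunits of oxidative phosphorylation 22 were higher and 0 lower (median 0.84). The 13 subunits encoded in mitochondrial DNA gave 0 higher and 0 lower in limma and in limma-voom, with 1 (mt-Nd2) at an unadjusted p under 0.05 and a median of -0.20 that became 0.43 under endothelial scaling, and after quantile normalization 4 were lower. Rps2 was at 242, 157, 171 and 152 FPKM in saline and 382, 652 and 784 FPKM in LPS (log2 fold change 1.70 ± 0.25, adjusted p = 0.000221). Psmb5, a catalytic subunit of the proteasome, was at 46.3, 36.6, 58.2 and 36.1 FPKM in saline and 109, 174 and 237 FPKM in LPS (log2 fold change 1.87 ± 0.23, adjusted p = 7.12e-05). Psmd14, a deubiquitinase of the proteasome lid, and Cox5a, a subunit of cytochrome c oxidase, rose by 1.71 ± 0.18 and 1.62 ± 0.18 (log2). The ribosomal count was 10 on total reads, 3 after quantile normalization, 77 under endothelial scaling and 15 with the trend in gene length and GC content removed, an alternative added after the data were seen. In the same order the proteasome count was 11, 4, 32 and 11, and the respiratory count 9, 4, 71 and 12. The medians of these 3 lists lay above that of all genes under each of these scalings, by 0.47 to 1.13 (ribosomal), by 0.78 to 1.24 (proteasome), and by 0.44 to 0.97 (respiration). Ribosomal genes have many processed copies in the genome that may share their reads. Without LPS replicate 2 the ribosomal count was 23 and the respiratory count 14. All 6 leukocyte markers and 7 of 8 macrophage markers were higher in these libraries, and their part in the genes of synthesis, degradation, respiration and the cell cycle was not tested. The unfolded protein response gave 6 higher of 27 and 0 lower, or 2, 1, 15 and 4 higher under those scalings. Its regulator Atf4 rose from 83.9, 62.3, 81.9 and 69.7 FPKM to 145, 184 and 226 FPKM (log2 fold change 1.29 ± 0.16, adjusted p = 9.25e-05), a call lost after quantile normalization (0.66). Of 44 genes of the cell cycle 10 were higher and 0 lower, with 21 higher at a pseudocount of 0.1 and in limma-voom and 22 under endothelial scaling. Mcm5, of the replicative helicase, and the proliferation marker Mki67 rose by 2.04 ± 0.19 and 1.73 ± 0.22 (log2), and their highest values were 17 and 7.79 FPKM.

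**Figure D5:**
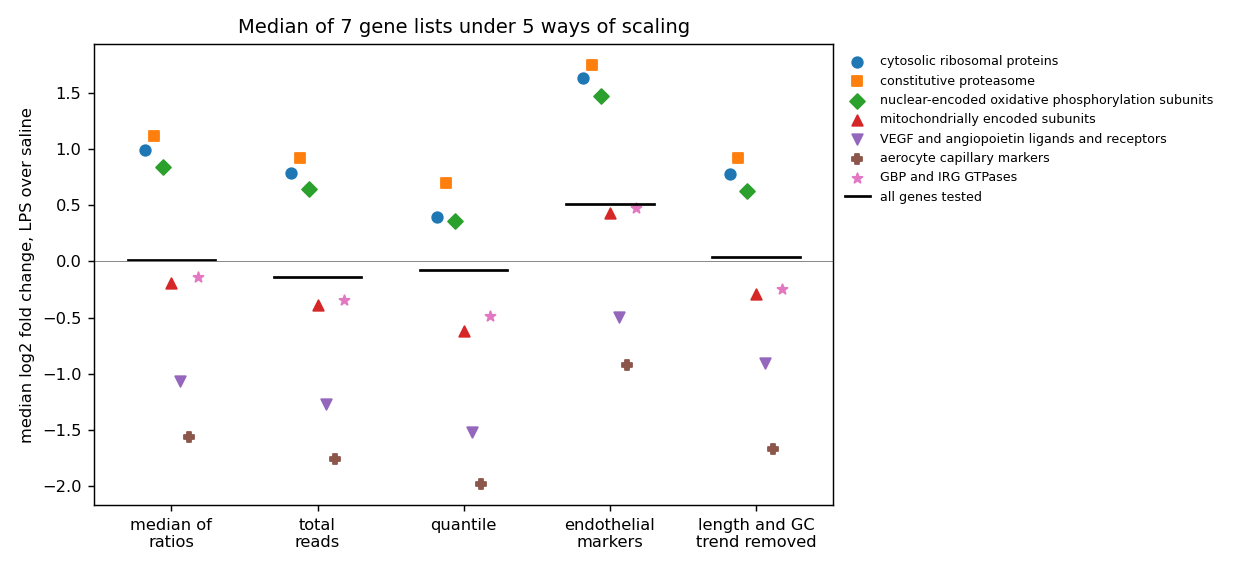
Median log2 fold change (LPS over saline) of 7 gene lists under 5 ways of scaling, with a black line at the median of all genes tested. The ribosomal, proteasome and respiratory lists lie above the line and the VEGF and aerocyte lists below it under all 5, while the line itself moves from -0.14 to 0.51.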

How the data were processed

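The authors, per their methods and processing notes, aligned reads to the mouse genome mm10 with HISAT2 2.0.5 and counted them on genes with featureCounts 1.5.0-p3, and they deposited FPKM with gene lengths. Trimming, strand, multiple alignments and the annotation release are not given in the sources used here. Deposited FPKM already held median-of-ratios scaling (residual 0.0%), and read numbers recovered from it were whole to within 0.01 for 100.0% of values. Genes reaching a mean of 0.5 FPKM were compared as log2(FPKM + 1) with limma 3.58.1 in R 4.3.3 (eBayes with trend), and p-values were Benjamini-Hochberg adjusted over all 14893 genes. The filter kept 671 genes with a saline mean under 0.5 FPKM and 821 with an LPS mean under 0.5 FPKM, which passed through the other group. At the filter's edge, 562 genes had means of 0.5 to 0.6 and 694 of 0.4 to 0.5 FPKM.

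The 61 gene lists (1553 genes tested, 606 called) and 10 marker lists were chosen with earlier results of these data known. Named genes are, in each list, the 3 largest rises and 3 largest falls among called members with groups apart and a higher mean of at least 2 FPKM, and the 10 largest each way outside the lists; the text uses 115 of these 231. Some results, among them 1 of the lists, are not reported here. Where the text names another gene, it says so. Replicates were separate samples in the labels, so p-values measure the spread between them. The floor of 3 reads in a gene of 1 kb was 0.227 FPKM in saline replicate 1 and 0.136 to 0.185 FPKM in the other libraries. The fit was tested on simulated data. Pairing of replicate numbers was checked, and 20 planned or added alternatives were run, including limma-voom on recovered reads. Promoters are from RefSeq (GRCm38.p6). Tables were made with pandas 2.3.3 in Python 3.11.15 and figures with matplotlib 3.10.9. The 6 libraries of the 2 mg/kg experiment on Fgfr1 genotypes were not used.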

Additional observations from a re-analysis of the deposited data

Results flagged for a closer look

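Among the 115 genes and 16 list levels reported, 32 of 262 group values had 1 library far from the rest by Dixon's test, where chance gives about 1 in 20 (13.1). Saline replicate 1 was that library in 19 of them and LPS replicate 1 in 6. Values below are log2(FPKM + 1), for the library against the range of the others of its group, and no explanation was tested.

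Saline replicate 1 was high in inflammatory and matrix genes: Cd14 (6.60 against 1.66 to 2.14), Cxcl3 (1.71 against 0.0 to 0.06), Sele (1.88 against 0.99 to 1.02), Itgam (2.14 against 0.66 to 0.79), F10 (2.24 against 0.49 to 0.69), Timp1 (1.86 against 0.89 to 0.96) and Sdc4 (4.35 against 3.55 to 3.66). It was high in clock and glucocorticoid genes Bhlhe40 (4.09 against 2.34 to 2.51), Ciart (5.07 against 3.98 to 4.13) and Fkbp5 (4.01 against 0.79 to 1.08) and low in Dbp (1.55 against 4.33 to 4.71). It was high in Slc16a3 (3.55 against 0.70 to 1.12), Slc7a11 (1.04 against 0.04 to 0.12) and the levels of the glycolysis (3.79 against 3.29 to 3.36) and ribosomal (6.99 against 6.42 to 6.49) lists. It was low in Ahr (4.46 against 5.93 to 6.07), Bmp4 (2.89 against 4.04 to 4.24), Spns2 (5.84 against 6.18 to 6.22) and Tjp1 (6.35 against 6.74 to 6.80). In each of these genes except Ciart, this library differed from the other saline libraries in the direction of the LPS group.

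LPS replicate 1, the library with the lowest endothelial sum, was low in Cx3cl1 (2.60 against 3.51 to 4.0), Bmp4 (1.17 against 2.11 to 2.54), Sema6a (2.39 against 3.02 to 3.26), Cav1 (7.17 against 7.94 to 8.39), Kcnq1 (1.45 against 2.11 to 2.36) and Inmt (4.52 against 5.60 to 6.18). Single values stood apart for Irf7 in LPS replicate 2 (8.0 against 6.98 to 7.26), Ciita in LPS replicate 3 (1.58 against 0.81 to 1.03) and Slc16a3 in LPS replicate 6 (4.43 against 5.13 to 5.46). In saline they stood apart for Tlr7 in replicate 2 (1.25 against 0.88 to 0.92), Ikbke in replicate 3 (0.55 against 0.99 to 1.08), and Axin2 (2.66 against 2.41 to 2.43) and the VEGF list level (4.94 against 4.82 to 4.83) in replicate 4.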

How the results depend on the processing

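The counts of 1768 higher and 1011 lower genes ranged from 1641 to 1947 and from 910 to 1107 when 1 library was left out at a time. They became 4005 and 246 under endothelial scaling and 4399 and 3529 with no limit on the fold change. Lower genes numbered 1840 with a pseudocount of 0.1 and 2008 in limma-voom on recovered reads, and higher genes 2331 and 2355. Total reads, quantile normalization, a mean of 2 FPKM, no filter, and a fit with the trend in gene length and GC content taken out (added after seeing the data, 99.9% of genes with GC) stayed within 1.5 times of both counts. The fifth of genes with the greatest length had a median log2 fold change of -0.22.

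With the replicate number as a block the counts were 1925 and 1063. The numbers did not pair the libraries: deviations of same-numbered libraries correlated at -0.21 to 0.10, and 0 of 4 saline libraries correlated best with their own number.

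No direction of the 115 named genes turned under any alternative run on them. These genes were chosen as called, with groups apart and among the largest changes, so most of this stability was fixed by the choice. In 1150 fits of these genes that left out a library 7 calls were lost. Endothelial scaling lost 23 calls, all of genes that fell, from -0.42 (Il6st) to -0.99 (Kdr). Quantile normalization lost B2m, Atf4 and Klf2 (0.64, 0.66 and 0.66), the length and GC trend lost Notch1 and Il6st, and the block and the absence of a filter each lost B2m. Among all genes tested, 2014 of the 2779 calls were kept under endothelial scaling and 2302 after quantile normalization. Depth limits genes under 1 FPKM.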

Other observations

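Outside the lists, the 10 genes that rose most included receptors of myeloid cells. Fpr2 and Fpr1, formyl peptide receptors that guide neutrophils, rose from 3.62, 2.02, 2.38 and 0.980 FPKM to 82.5, 171 and 236 FPKM (log2 fold change 5.72 ± 0.30, adjusted p = 4.46e-07) and from 2.68, 2.66, 2.37 and 1.38 FPKM to 92.2, 152 and 244 FPKM (log2 fold change 5.63 ± 0.25, adjusted p = 2.29e-07). Treml4, a myeloid receptor, rose by 5.55 ± 0.27 (log2). The groups were apart in each, and the neutrophil and macrophage sums rose in the same libraries. Their part in these genes was not tested.

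The 10 genes outside the lists that fell most included matrix, enzyme and noncoding genes. Fendrr, a long noncoding RNA beside Foxf1 in lung mesenchyme and endothelium, fell from 278, 174, 221 and 188 FPKM to 16.6, 30.3 and 54.4 FPKM (log2 fold change -2.72 ± 0.29, adjusted p = 3.12e-05), with no overlap. Abi3bp, an extracellular matrix protein, fell from 15.4, 18.7, 17.2 and 16.1 FPKM to 0.960, 1.32 and 2.52 FPKM (log2 fold change -2.82 ± 0.18, adjusted p = 1.24e-06), and Nptx1, a pentraxin, from 11.2, 11.3, 15.6 and 9.89 FPKM to 0.677, 1.14 and 1.64 FPKM (log2 fold change -2.57 ± 0.15, adjusted p = 8.63e-07). Inmt, a methyltransferase abundant in lung, and Ephx1, an epoxide hydrolase, had log2 fold changes of -2.56 ± 0.31 and -2.53 ± 0.24. The fibroblast, epithelial and mural markers gave 0 of 6, 2 of 9 and 1 of 7 called lower beside these falls, whose cause was not tested.

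By annotated type, 12.6% of 12126 protein-coding genes were higher and 6.46% lower. Of 816 processed pseudogenes 14.1% were higher and 1.35% lower, and such copies may share reads with their parent genes. Of 173 miRNA genes 2.89% were higher and 17.9% lower, and of 351 lincRNA genes 9.69% were higher and 12.5% lower. Of 99 immunoglobulin variable genes 0% were higher and 19.2% lower, beside 3 of 5 lymphocyte markers called lower.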
